A study of Homo sapiens with 6 samples.

Results

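The early response genes EGR1, EGR2, EGR3, NR4A1, KLF2, KLF6, KLF10, IER2, IER3 and IER5 were followed in the human acute myeloid leukaemia line OCI-AML2. They were chosen by name, from the gene symbols of the count table, with earlier results of these data known. All 10 had a row among the 55765 genes of that table. The MRT199665 group held 3 libraries of cells given 100 nM MRT199665, which the labels describe as an inhibitor of the MARK kinases, and the vehicle group held 3 libraries of cells given vehicle, both for 48 h. Cells of both groups were grown from single-cell clones, and the labels do not say how many clones were used or whether each library had its own culture. P-values therefore refer to the spread among these 6 libraries, which could be technical. Sequencing started at the 3′ end of each polyadenylated RNA, and values are given as CPM, that is counts relative to library size after scaling with TMM (trimmed mean of M values). The question put to these genes was whether their transcripts differed between inhibitor and vehicle.

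Early response genes are transcribed within minutes of a growth factor, cytokine or stress signal, without the synthesis of new protein, and most of their messenger RNAs are short-lived. Signals that run through the kinase ERK reach many of them at CArG boxes, DNA sites of serum response factor and its ternary complex partners, and cyclic AMP signals reach some of them through CREB. EGR and KLF proteins are zinc finger transcription factors that bind GC-rich and CACCC-like DNA, NR4A1 is an orphan nuclear receptor, and the IER genes encode early response proteins outside these families. In myeloid cells EGR1 and EGR2 are known for their part in monocytic differentiation. NR4A1 and KLF2 are also known as target genes of MEF2 factors, which class IIa histone deacetylases hold in check, and in mice the loss of NR4A1 together with NR4A3 leads to acute myeloid leukaemia. Only the 48 h time was sampled, so the values describe the level after prolonged exposure and not the early response itself.

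The upstream sequences of the 3 tested genes with the lowest p, EGR1, IER2 and KLF6, are shown because they differ in these response elements. Of the 10 genes, 7 had entries in the RefSeq promoter table (GRCh38.p14), and IER3, EGR3 and KLF10 had none. Each line holds the 250 bases before the annotated start, 5′ to 3′ on the gene's strand. Capitals mark CArG boxes, the core TGACG of the cyclic AMP response element on either strand (CGTCA on the printed strand) and the EGR site GCGGGGGCG.
EGR1: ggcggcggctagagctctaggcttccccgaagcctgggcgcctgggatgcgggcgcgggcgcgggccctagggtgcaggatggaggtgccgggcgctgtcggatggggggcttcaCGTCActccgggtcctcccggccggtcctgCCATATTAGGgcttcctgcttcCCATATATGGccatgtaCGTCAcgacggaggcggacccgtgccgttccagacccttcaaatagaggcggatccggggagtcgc
IER2: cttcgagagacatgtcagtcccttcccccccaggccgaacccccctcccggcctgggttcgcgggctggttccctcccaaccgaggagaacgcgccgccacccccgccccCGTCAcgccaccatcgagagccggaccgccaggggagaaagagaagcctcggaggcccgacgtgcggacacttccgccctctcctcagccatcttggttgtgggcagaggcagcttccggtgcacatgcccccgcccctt
KLF6: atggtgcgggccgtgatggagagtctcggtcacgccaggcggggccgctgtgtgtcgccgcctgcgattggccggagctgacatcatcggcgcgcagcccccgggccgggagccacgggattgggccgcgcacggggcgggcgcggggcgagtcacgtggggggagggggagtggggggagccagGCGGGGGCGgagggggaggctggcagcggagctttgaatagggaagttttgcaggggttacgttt
The EGR1 window lies at chr5:138465229-138465478 on the plus strand, the IER2 window at chr19:13150161-13150410 on the plus strand and the KLF6 window at chr10:3785210-3785459 on the minus strand.

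EGR1 had 2 CArG boxes, which began 105 and 83 bases before the start, and 2 TGACG cores. A CArG box was found in 1.16% of 34943 distinct RefSeq windows of the same length. Among the 10 windows of the 7 genes, the other with a CArG box was the third annotated start of EGR2, where it began 71 bases before the start. IER2 had 1 TGACG core, a match found in 21.2% of windows. KLF6 had 1 GCGGGGGCG match, present in 4.71% of windows, and so did KLF2. The KLF2 window also held a MEF2 box 120 bases before the start, a match found in 2.81% of windows. The windows of NR4A1 (both starts), the first and second EGR2 starts and IER5 held no CArG box, MEF2 box, TGACG or EGR site (GCGGGGGCG or GCGTGGGCG), and no window of the 7 genes held the full TGACGTCA. IER5 and KLF2 had TATAA close to the start, a match found on either strand in 19% of windows. Both strands were searched, and the TGACG core lies within TGACGTCA, so these searches overlap. These matches describe letters in short windows and do not show that a factor was bound.

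Depth ranged from 5871097 to 14308650 counts per library, and the shallowest was MRT199665 replicate 2. The first principal component, with 46.75% of the variance, did not follow treatment, and its ends were MRT199665 replicate 2 (48.4) and vehicle replicate 2 (-36.8). On the second, with 26.25%, the groups were apart, from -26.4 to -5.94 for MRT199665 libraries and from 0.954 to 35.3 for vehicle libraries. The line carried myeloid transcripts, with summed CPM of 10 myeloid markers between 474 and 530 with MRT199665 and between 397 and 511 with vehicle, although CEBPA, a myeloid transcription factor gene, had a count of 0 in all 6 libraries. None of the 8 myeloid markers tested was called by edgeR, DESeq2 or limma-voom. Of the 8, 5 had an unadjusted p under 0.05 (edgeR), all higher with MRT199665, against 7.64% of all tested genes. Of 4 erythroid markers, HBB and HBA1 had a count of 0 throughout. The summed CPM of 6 T and NK cell markers was between 9.74 and 11.2 with MRT199665 and between 7.38 and 7.94 with vehicle, mostly NKG7, with CD2 at 0. That of 4 B cell markers was between 5.36 and 6.76 with MRT199665 and between 6.29 and 7.98 with vehicle, with MS4A1 at 0. That of 3 megakaryocyte markers was between 2.27 and 5.07 with MRT199665 and between 1.59 and 3.09 with vehicle, with PF4 at 0. The part of these marker levels in the results below was not tested.

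In these 6 libraries EGR1 was lower with MRT199665, and no other of these genes passed the test. The EGR1 call held in 10 of 16 fits with other settings or with libraries left out. Of the 10 genes, 7 passed the low-count filter and were tested, and EGR2, EGR3 and NR4A1 were too low to test. EGR1 was called lower, against a background of 0.398% of 13053 tested genes called lower (52 genes, with calls made by edgeR's quasi-likelihood test where the Benjamini-Hochberg adjusted p was below 0.05). No early gene was called higher, against a background of 0.85% (111 genes). DESeq2, which gave 6 of the 7 genes an adjusted p, and limma-voom also called EGR1 alone among them. DESeq2 called 1.25% of 12356 genes lower and 1.63% higher, and limma-voom 0.383% and 0.82% of the 13053. EGR1 and IER2 had an unadjusted p under 0.05 (edgeR), where 7.11% of tested genes had such a p with a lower level and 7.64% with a higher one. In bulk RNA a lower share of cells with a transcript and less transcript per cell cannot be told apart.

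**Figure D1:**
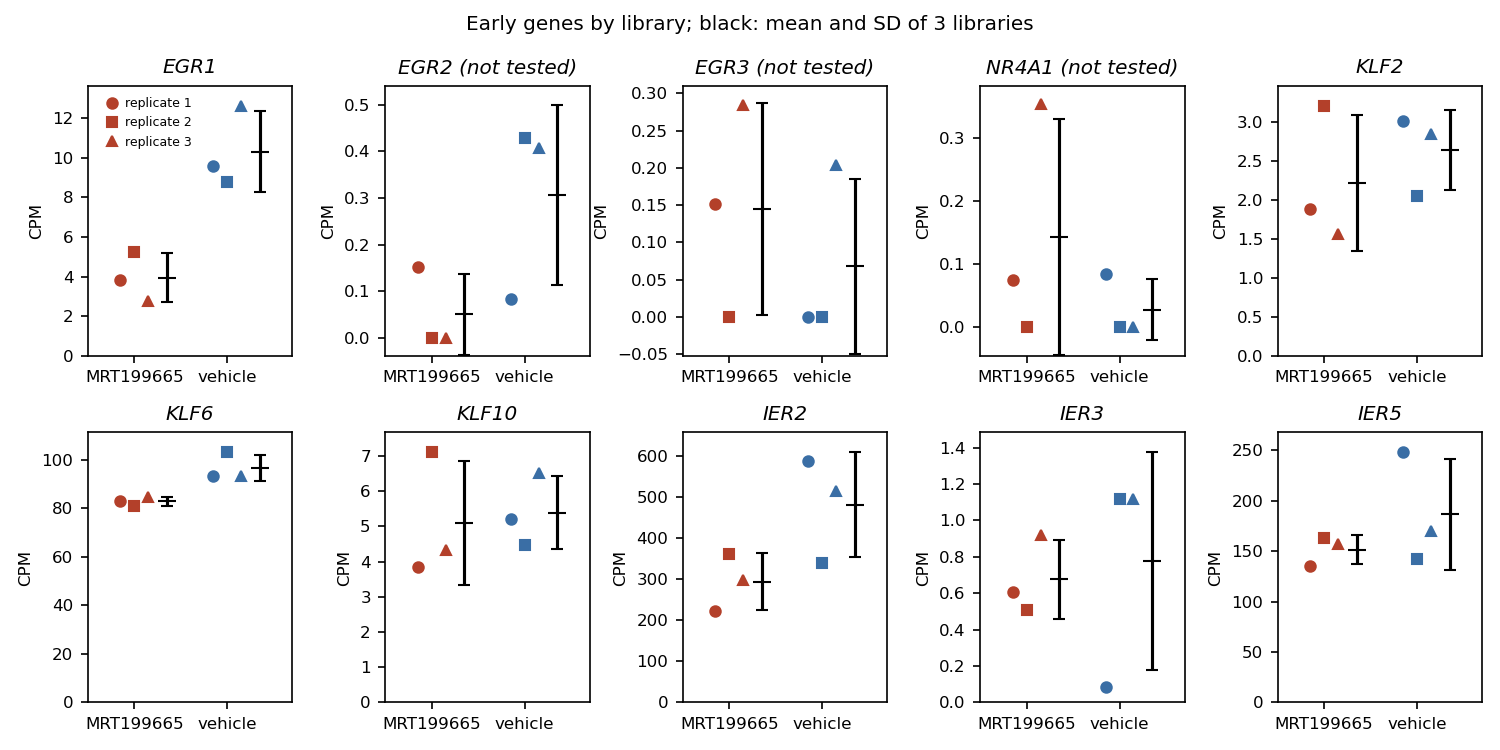
Level of each of the 10 early genes (CPM, linear axes that differ between genes) in the 3 MRT199665 libraries and the 3 vehicle libraries. Points are libraries, shapes give the replicate number, and black marks give the mean and SD. EGR1 lies between 2.76 and 5.24 CPM with MRT199665 and between 8.75 and 12.6 CPM with vehicle, without overlap.

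EGR1 encodes a zinc finger activator that is among the most widely induced early response genes. It had 3.85, 5.24 and 2.76 CPM in MRT199665 replicates 1, 2 and 3, against 9.56, 8.75 and 12.6 CPM in vehicle replicates 1, 2 and 3. Every MRT199665 library lay below every vehicle library, and the nearest pair across the groups was replicate 2 of each. EGR1 averaged 3.95 ± 1.24 CPM in MRT199665 libraries and 10.3 ± 2.04 CPM in vehicle libraries (SD, n = 3 libraries each), from 121 counts in all with MRT199665 and 340 with vehicle. The log2 fold change was -1.43 ± 0.26 (SE), a 2.70-fold lower level, with a 95% interval from -2.02 to -0.85 and an adjusted p of 0.0393 (edgeR quasi-likelihood test). By p-value EGR1 stood at rank 132 among the 13053 tested genes. The call was close to the threshold: it ended when any library other than MRT199665 replicate 2 was left out, with edgeR adjusted p of 0.135 and 0.183 without MRT199665 replicates 1 and 3, and 0.0564, 0.0512 and 0.202 without vehicle replicates 1, 2 and 3. Over the 6 fits that left out 1 library each, the log2 fold change lay between -1.64 and -1.22.

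The other EGR genes were near the detection limit. The limit set by a count of 0 (3 counts, for counting error alone) came to 0.213 CPM in the deepest library and 0.507 CPM in the shallowest. EGR2, a zinc finger factor known from myelination and from macrophage differentiation, had 2, 0 and 0 counts in MRT199665 replicates 1, 2 and 3, against 1, 5 and 4 counts in vehicle replicates 1, 2 and 3. Both groups thus held libraries of 0 to 2 counts, and the groups overlapped. Over each group's libraries EGR2 had 2 counts with MRT199665 and 10 with vehicle, a ratio of 0.201 with a 95% exact counting interval from 0.0214 to 0.942, which leaves out variation between libraries. Fitted without a low-count filter, EGR2 had an edgeR adjusted p of 0.593. EGR3, known from muscle spindle development and lymphocytes, had 2, 0 and 4 counts with MRT199665, against 0, 0 and 2 counts with vehicle. No difference in EGR3 was detectable at this depth, with a ratio of 3.01 and a counting interval from 0.539 to 30.5. An annotated transcript on the opposite strand overlaps EGR3, and without the strand setting of the counting their reads cannot be told apart.

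Among the IER genes, IER2 had the lowest p. IER2 is an early nuclear protein reported to regulate transcription and cell motility. It had 222, 361 and 297 CPM in MRT199665 replicates 1, 2 and 3, against 587, 340 and 515 CPM in vehicle replicates 1, 2 and 3. The groups overlapped through the libraries numbered 2, since vehicle replicate 2 lay below MRT199665 replicate 2, while the other 4 libraries were apart. Its mean was 293 ± 69.5 CPM (SD, n = 3) in MRT199665 libraries and 481 ± 127 CPM in vehicle libraries (SD, n = 3). Its log2 fold change was -0.72 ± 0.23 (SE), with an unadjusted p of 0.0139 and an adjusted p of 0.198 (edgeR), so it was not called. Without both libraries numbered 2, which are the ends of the first principal component, IER2 was called lower at a log2 fold change of -1.09 ± 0.17 (SE) and an edgeR adjusted p of 0.0224. Leaving out these 2 libraries also takes away the overlap of the groups, so this fit is not separate evidence on IER2. In that fit EGR1 was also called, at -1.75 (adjusted p = 0.0166), against a background of 0.339% of genes called lower and 0.693% called higher. IER2 was called in 1 other fit, that without a low-count filter, where 0.96% of 28230 genes were called lower and 1.32% higher. IER2 also overlaps an annotated transcript on the opposite strand, with the same limit as for EGR3.

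IER5, an early response protein that binds the B55 subunits of protein phosphatase 2A and acts on the heat shock factor HSF1, had 135, 163 and 157 CPM in MRT199665 replicates 1, 2 and 3, against 248, 142 and 170 CPM in vehicle replicates 1, 2 and 3. Vehicle replicate 1 stood well above the other 5 libraries, which lay between 135 and 170 CPM in both groups. The log2 fold change of IER5 was -0.30 ± 0.20 (SE, adjusted p = 0.538, edgeR), and with single libraries left out it ran between -0.47, without vehicle replicate 2, and -0.04, without vehicle replicate 1. IER3, a regulator of apoptosis and ERK signalling, passed the filter at few counts, with 8, 3 and 13 counts with MRT199665, against 1, 13 and 11 counts with vehicle. Vehicle replicate 1 was the lowest library, with 0.0839 CPM, and the vehicle libraries ranged up to 1.12 CPM. The log2 fold change of IER3 was -0.09 ± 0.68 (SE), with a 95% interval from -1.63 to 1.45 that does not limit the change in either direction to less than 2-fold. IER3 also overlaps an annotated transcript on the opposite strand.

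The KLF genes showed small differences, none called. KLF6, a zinc finger factor expressed in many tissues and in macrophages, had 83.0, 81.0 and 84.6 CPM in MRT199665 replicates 1, 2 and 3, against 93.5, 103 and 93.4 CPM in vehicle replicates 1, 2 and 3. All 3 MRT199665 libraries lay below all 3 vehicle libraries, within a narrow span. KLF6 averaged 82.8 ± 1.80 CPM in MRT199665 libraries and 96.6 ± 5.49 CPM in vehicle libraries (SD, n = 3 each), and the log2 fold change was -0.22 ± 0.10 (SE, adjusted p = 0.367, edgeR) with a 95% interval from -0.46 to 0.01. EGR1 and KLF6 were the 2 of the 7 tested genes whose groups did not overlap with MRT199665 lower, against a background of 10.8% of all tested genes. None was non-overlapping in the other direction, against 11.4%.

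KLF2, known for its part in T cell quiescence and in restraining monocyte activation, had 1.89, 3.21 and 1.56 CPM in MRT199665 replicates 1, 2 and 3, against 3.02, 2.06 and 2.85 CPM in vehicle replicates 1, 2 and 3. KLF10, also known as a TGF-beta inducible early gene, had 3.85, 7.10 and 4.32 CPM in MRT199665 replicates 1, 2 and 3, against 5.20, 4.46 and 6.51 CPM in vehicle replicates 1, 2 and 3. In both genes MRT199665 replicate 2 was the highest of all 6 libraries and vehicle replicate 2 the lowest of its group. The log2 fold change was -0.33 ± 0.33 (SE, adjusted p = 0.696, edgeR) for KLF2 and -0.13 ± 0.27 (SE, adjusted p = 0.882, edgeR) for KLF10. Their 95% intervals ran from -1.07 to 0.41 and from -0.75 to 0.49. Without both libraries numbered 2 the values were -0.77 for KLF2 and -0.51 for KLF10, and neither was called. Leaving out single libraries moved the value of KLF2 between -0.61, without MRT199665 replicate 2, and -0.13, without MRT199665 replicate 3, and it was called in neither fit.

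NR4A1 was at the detection limit in both groups. It had 1, 0 and 5 counts in MRT199665 replicates 1, 2 and 3, against 1, 0 and 0 counts in vehicle replicates 1, 2 and 3. The 6 counts with MRT199665 and 1 count with vehicle gave a ratio of 6.02, with a 95% exact counting interval from 0.731 to 277, and 5 of the 6 came from replicate 3. A difference was therefore not detectable at this depth. NR4A1 too overlaps an annotated transcript on the opposite strand, so its few counts cannot be assigned to 1 strand. In its family, NR4A3 had a count of 0 in every library, and NR4A2, the related nuclear receptor known from dopaminergic neurons, had 2.42, 1.86 and 1.84 CPM with MRT199665, against 1.76, 3.09 and 2.04 CPM with vehicle. The groups overlapped for NR4A2, and its log2 fold change was -0.16 ± 0.30 (SE, adjusted p = 0.868, edgeR).

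**Figure D2:**
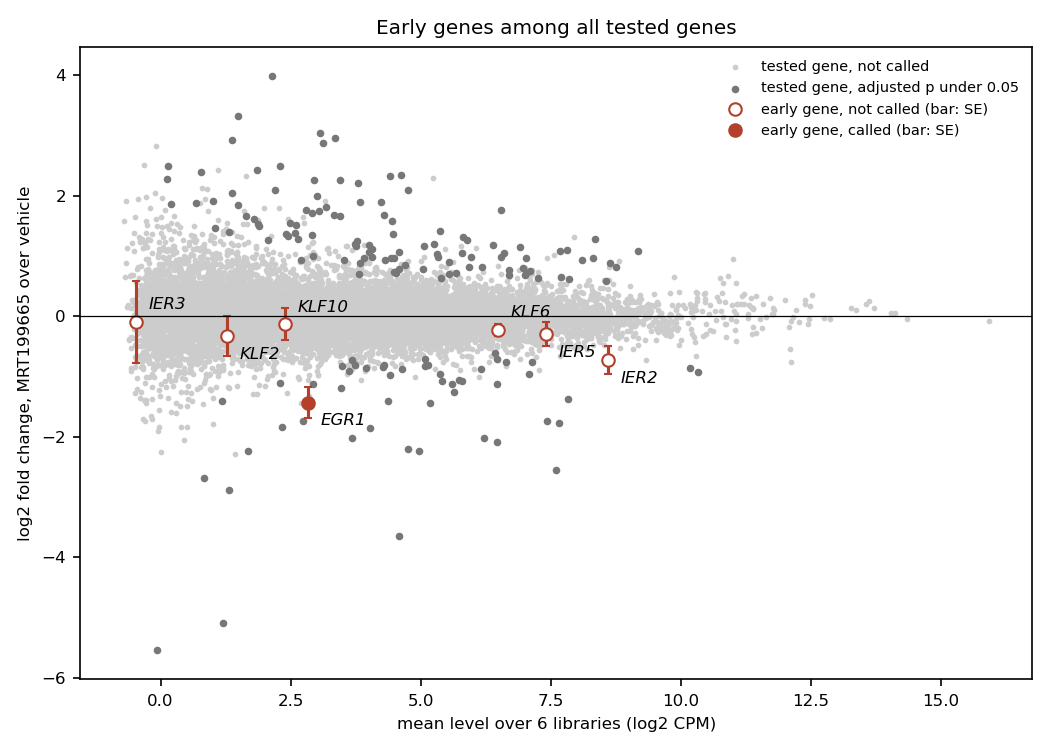
Log2 fold change (MRT199665 over vehicle) against mean level over the 6 libraries (log2 CPM, from the group means) for all 13053 tested genes, with the 7 tested early genes in red and bars for their SE. EGR1, at -1.43, is filled because it was called, and the other early genes, between -0.72 and -0.09, are open.

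All 7 tested genes had negative log2 fold changes, with a median of -0.30, while over all tested genes the median was 0.01, with 6411 negative and 6642 positive. The values of 5 of the 7, from -0.33 to -0.09, lay within the range from -0.54 to 0.66 that held the middle 90% of all tested genes, and those of EGR1 and IER2 lay outside it. The remaining genes of these families gave no call by edgeR, DESeq2 or limma-voom, and none had an unadjusted p under 0.05 (edgeR). Of 18 further EGR, NR4A, KLF and IER5L genes, 9 were tested, 6 had a negative value and the median was -0.16. Those with the lowest p were KLF11, a TGF-beta inducible relative of KLF10 (0.55 ± 0.33 on the log2 scale, SE, adjusted p = 0.496, edgeR), and KLF13 (0.20 ± 0.13, SE, adjusted p = 0.537). EGR4 was not tested, with means of 0.105 CPM in MRT199665 libraries and 0.249 CPM in vehicle libraries.

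The libraries of a group differed among themselves in the same genes. After centring each gene, vehicle replicate 1 had the highest IER2 (0.68 on the log2 scale) and IER5 (0.58) and the lowest IER3 (-1.60) of all libraries. MRT199665 replicate 2 had the highest KLF2 (0.42) and KLF10 (0.46). EGR1 was lowest in MRT199665 replicate 3 (-1.13) and highest in vehicle replicate 3 (0.99). Over the 6 libraries, which share treatment as well as any difference in handling, Pearson's r of log2 CPM was 0.85 between KLF2 and KLF10, 0.84 between IER2 and IER5, 0.79 between EGR1 and IER2 and -0.80 between IER3 and IER5. These coefficients are descriptions of 6 points. KLF6 had r between -0.09 and 0.17 with KLF2, KLF10, IER3 and IER5, and 0.73 with EGR1.

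**Figure D3:**
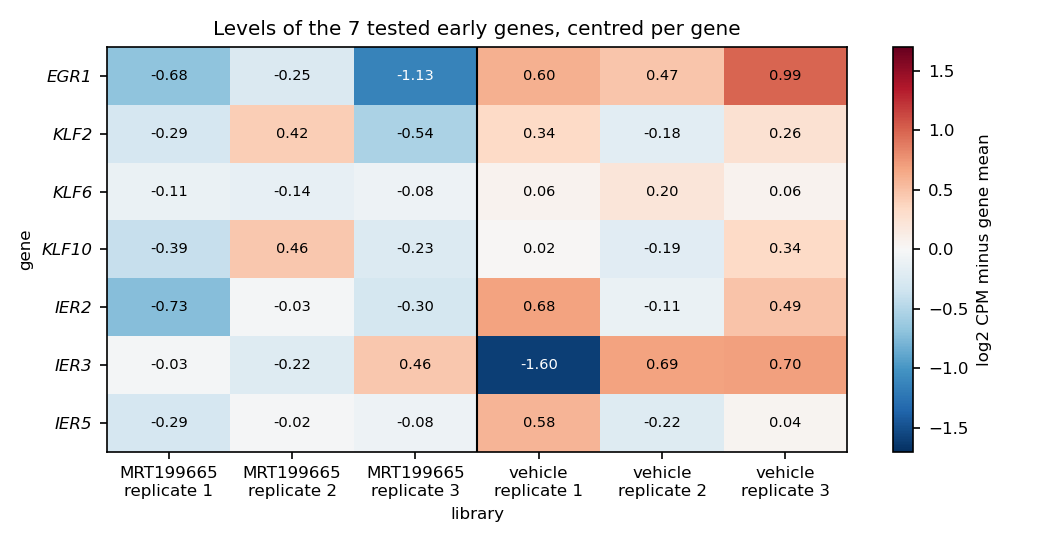
Level of the 7 tested early genes in each library, as log2 CPM minus the gene's mean over the 6 libraries, with MRT199665 libraries left of the line and vehicle libraries right of it. Red is above and blue below the gene's mean. EGR1 is negative in all MRT199665 libraries and positive in all vehicle libraries, and IER3 is lowest in vehicle replicate 1 (-1.60).

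The 2 genes with the highest r to each early gene were taken from 7279 tested genes with a mean of at least 10 CPM. For EGR1 they were IPO5, a nuclear import receptor (r = 0.9857), and MTF1, the metal-responsive transcription factor (r = 0.9851). MTF1 averaged 22.4 ± 1.66 CPM in MRT199665 libraries and 28.1 ± 1.95 CPM in vehicle libraries (SD, n = 3 each), and its log2 fold change was -0.33 ± 0.13 (SE). For IER2 they were EIF2B3, a subunit of the exchange factor for eIF2 (r = 0.9895), and PSAT1, an enzyme of serine synthesis (r = 0.9846). PSAT1 averaged 9.49 ± 2.58 CPM in MRT199665 libraries and 19.5 ± 8.06 CPM in vehicle libraries (SD, n = 3 each), with a log2 fold change of -1.06 ± 0.32 (SE). For IER5 they were CKS1B, a cyclin-dependent kinase subunit (r = 0.9971), and PREP, a prolyl endopeptidase (r = 0.9958). For KLF6 they were KCMF1, a ubiquitin ligase (r = 0.9973), and NMT2, a myristoyltransferase (r = 0.9901). For KLF2 they were POLR1E (r = 0.9801) and LDHA (r = 0.9702), for KLF10 OIP5-AS1 (r = 0.9969) and OPRL1 (r = 0.9811), and for IER3 LMO4 (r = 0.9934) and CTD-2020K17.1 (r = 0.9901). IER3, with at most 13 counts in a library, thus also had matches above 0.99, so likeness over 6 libraries singles out no gene here.

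Genes that act upstream of the early genes were not called by edgeR, DESeq2 or limma-voom. Of 6 tested genes for SRF, its ternary complex factors and the MRTF coactivators, 1 had an unadjusted p under 0.05 (edgeR, higher with MRT199665), and the largest value was that of ELK3, a ternary complex factor (log2 fold change 0.76 ± 0.33, SE, adjusted p = 0.338, edgeR), and MKL1 had 0.21 ± 0.12 (SE, adjusted p = 0.469). SRF itself averaged 116 ± 63.2 CPM in MRT199665 libraries and 113 ± 92.8 CPM in vehicle libraries (SD, n = 3 each), with a 95% interval of the log2 fold change from -1.27 to 1.34. Of 13 tested genes for RAS and the kinases of the ERK pathways none was called, 1 lower and 1 higher had an unadjusted p under 0.05 (edgeR). Among these 13 genes, 10 had positive values and the median was 0.14. Over all tested genes 7.11% had such a p with a lower level and 7.64% with a higher one. MAP2K5, the kinase upstream of ERK5, had a negative value, at -0.37 ± 0.14 on the log2 scale (SE, adjusted p = 0.255, edgeR). Of 7 tested MEF2 and class IIa deacetylase genes none was called or had an unadjusted p under 0.05 (edgeR). Those with the lowest p, HDAC5 and MEF2A, had log2 fold changes of 0.27 ± 0.16 and 0.20 ± 0.18 (SE).

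**Figure D4:**
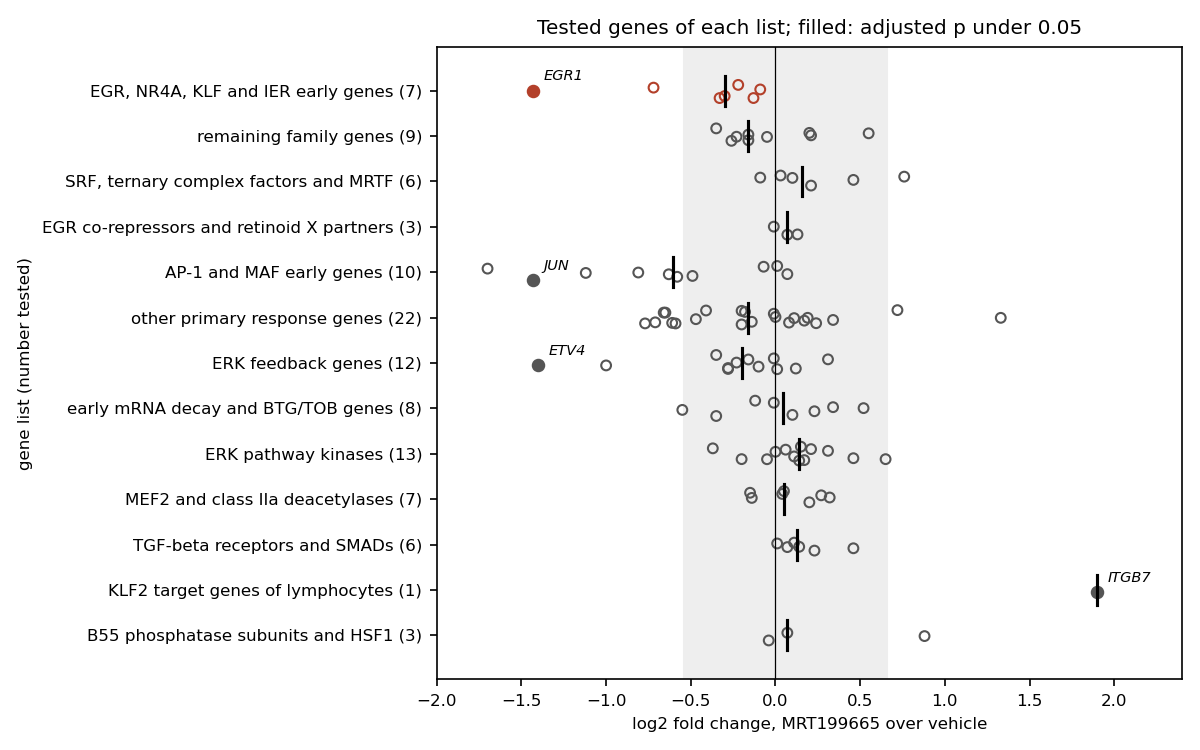
Log2 fold change (MRT199665 over vehicle) of the tested genes in each list, 1 point per gene, with the number tested in brackets. Filled points were called, black bars are list medians, and the grey band, from -0.54 to 0.66, holds the middle 90% of all tested genes. EGR1, JUN, ETV4 and ITGB7 are the genes called by edgeR.

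Other early response genes gave 2 calls by edgeR, those of JUN and ETV4, which DESeq2 and limma-voom also called, and DESeq2 called 2 more. Of 10 tested AP-1 and MAF genes, JUN was called lower by edgeR, 8 had negative values and the median was -0.61. Of these 10, 6 had an unadjusted p under 0.05 (edgeR) with a lower level and 0 with a higher one. Over all tested genes the shares were 7.11% and 7.64%. In 5 of the 10 the groups did not overlap, with MRT199665 lower, against 10.8% of all tested genes. JUN, a subunit of AP-1, had 22.2, 16.9 and 19.3 CPM in MRT199665 replicates 1, 2 and 3, against 58.3, 46.7 and 53.6 CPM in vehicle replicates 1, 2 and 3, and its fold was as large as that of EGR1 at a smaller error (log2 fold change -1.43 ± 0.15, SE, adjusted p = 0.00297, edgeR). Of 12 tested ERK feedback genes, ETV4, an ETS family factor, was called lower, 9 had negative values and the median was -0.19. Among the 12, 2 lower and 0 higher had an unadjusted p under 0.05 (edgeR). ETV4 had 11.6, 10.5 and 11.9 CPM with MRT199665, against 28.7, 33.1 and 28.6 CPM with vehicle. JUNB, another AP-1 subunit, was called lower by DESeq2 (log2 fold change -0.83 ± 0.25, SE, adjusted p = 0.0428) and not by edgeR or limma-voom. DESeq2 called 1.25% of 12356 genes lower. For JUN and ETV4 the gap between the groups was wider than the spread within each. Of 22 tested genes in a wider list of primary response genes edgeR and limma-voom called none and DESeq2 called PPP1R15A lower (log2 fold change -0.63 ± 0.18, SE, adjusted p = 0.0263). By edgeR 5 had an unadjusted p under 0.05 with a lower level and 1 with a higher level, against 7.11% and 7.64% of all tested genes. Of the 22, 14 had negative values and the median was -0.16. Those with the lowest edgeR p were PPP1R15A, a phosphatase subunit of the stress response (log2 fold change -0.61 ± 0.13, SE, adjusted p = 0.0804, edgeR), and TNFAIP3, an inhibitor of NF-kB signalling (-0.66 ± 0.19, SE, adjusted p = 0.16). Of 8 tested genes for early messenger RNA decay and the BTG/TOB family none was called by edgeR, DESeq2 or limma-voom, 1 lower and 2 higher had an unadjusted p under 0.05 (edgeR), and 4 were negative. BTG3 stood at -0.55 ± 0.15 on the log2 scale (SE, adjusted p = 0.146, edgeR) and ZFP36L2 0.52 ± 0.20 (SE, adjusted p = 0.275).

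Partners of these proteins and known targets of KLF2 gave 1 call by edgeR, that of ITGB7, which was also called by DESeq2 and limma-voom. Of 4 such targets ITGB7 alone was tested, and edgeR called 0.85% of all tested genes higher. No list of EGR1 targets was examined. NAB1, a co-repressor of EGR proteins, had 20.7 ± 3.23 CPM in MRT199665 libraries and 21.0 ± 3.39 CPM in vehicle libraries (SD, n = 3 each). Beside it, 2 retinoid X receptor genes, whose proteins pair with NR4A1, were tested. RXRB had a log2 fold change of 0.13 ± 0.14 and RXRA of 0.07 ± 0.12 (SE). NAB2 was not tested, with means of 0.664 CPM in MRT199665 libraries and 0.659 CPM in vehicle libraries. Of the KLF2 targets known from lymphocytes, mostly in mice, S1PR1 and CCR7 were too low to test. ITGB7, an integrin subunit, had 19.3, 28.4 and 20.3 CPM in MRT199665 replicates 1, 2 and 3, against 7.47, 5.66 and 4.89 CPM in vehicle replicates 1, 2 and 3. It rose 3.72-fold (log2 fold change 1.90 ± 0.22, SE, adjusted p = 0.00425, edgeR). Of 6 tested TGF-beta receptor, ligand and SMAD genes none was called or had an unadjusted p under 0.05 (edgeR), and SMAD4 (0.23 ± 0.17, SE) and TGFBR2 (0.46 ± 0.35, SE) had the lowest p. Of the B55 subunits and HSF1, 3 genes were tested and none was called or had an unadjusted p under 0.05 (edgeR), with HSF1 at 0.88 ± 0.66 (SE) and PPP2R2D at 0.07 ± 0.14 (SE). Whether any of these values differs from that of EGR1 was not tested.

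Of the 7 tested early genes, EGR1, KLF2, KLF6, IER2 and IER5 kept a negative log2 fold change in each of 16 alternative fits. EGR1 was called in 10 of the 16, IER2 in 2, and the other 5 genes in none. IER3 and KLF10 changed sign in some fits, in 7 of 15 for IER3 and 2 of 16 for KLF10. Scaling did not move the median of all tested genes by over 0.1 on the log2 scale in any of the 3 other scalings.

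**Figure D5:**
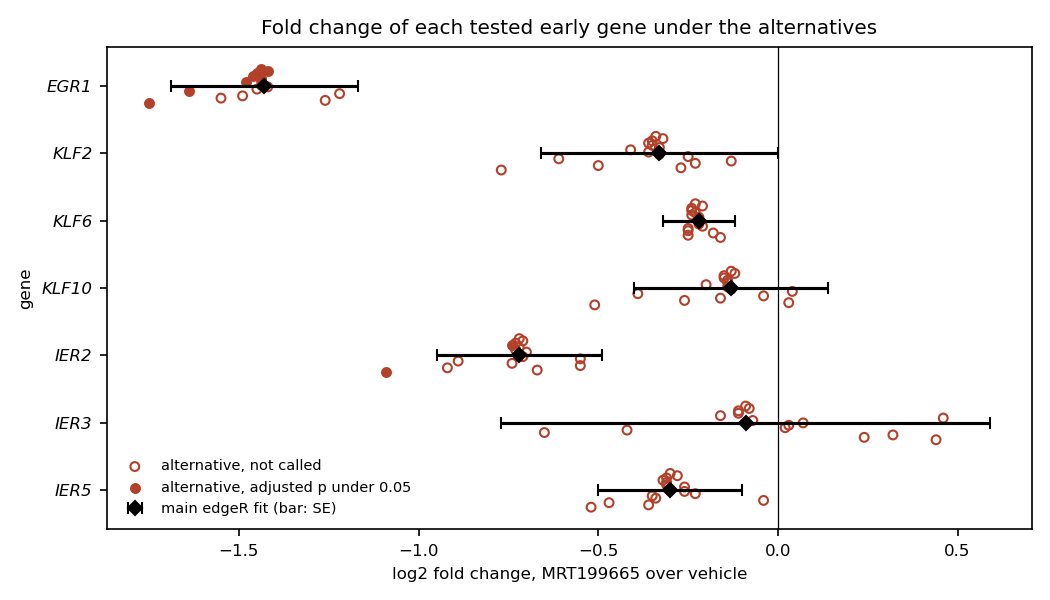
Log2 fold change (MRT199665 over vehicle) of the 7 tested early genes in the edgeR fit (black, bar SE) and in 16 alternatives (red, 15 for IER3), filled where the adjusted p was under 0.05. The values for EGR1 lie between -1.75 and -1.22, and those for IER3 lie on both sides of 0.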

How the data were processed

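The authors deposited whole-number counts per gene for 6 libraries, not normalized, under gene symbols. The submitters' processing notes name STAR 2.4, HTSeq 0.6.1, DESeq2 and the hg19 build; the gene annotation, the strand setting and any filter on reads are not given in the sources used here. No hg19 coordinates are given. Groups and replicate numbers came from the labels. Counts of libraries within a group differed by far more than sampling noise (chi-square per degree of freedom of at least 8.59), so each was kept as a sample. The genes and lists were chosen with earlier results of these data known.

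The test was edgeR 4.0.16 run in R 4.3.3 (glmQLFit and glmQLFTest, TMM scaling, group as the only term) after filterByExpr (min.count 10, min.total.count 15). This left 13053 of 55765 genes, over which p-values were adjusted by Benjamini-Hochberg. The call threshold was 0.05, two-sided. Standard errors were taken as the absolute log2 fold change over the root of the F statistic, and 95% intervals used the t distribution with the degrees of freedom of the test. Correlations used log2 CPM with a prior count of 2. Genes named from other lists were the called ones, or the 2 of lowest p where none was called. JUNB, EGR4, NR4A2, NR4A3, SRF, NAB1, NAB2, S1PR1 and CCR7 were added after their values were seen. Some genes of these lists are not reported here. Upstream windows were read from the RefSeq promoter table (GRCh38.p14), and overlaps with opposite-strand transcripts from GENCODE. The test was tried on simulated counts first. Alternatives were other scalings, low-count filters, DESeq2 1.42.0, limma-voom (limma 3.58.1), the newer quasi-dispersion of edgeR, the replicate number as a block and libraries left out. Depth was 5871097 to 14308650 counts per library, which limits genes at few CPM.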

Additional observations from a re-analysis of the deposited data

How the results depend on the processing

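The number of early genes called lower, 1 by edgeR, was 2 without a low-count filter and 2 without both libraries numbered 2 (EGR1 and IER2 each time), 0 with the replicate block, and between 0 and 1 when single libraries were left out. None was called higher in any alternative. Over all genes, 52 lower and 111 higher calls became 271 and 373 without a low-count filter, 154 and 201 by DESeq2, 5 and 7 with the replicate block, and 20 to 55 and 29 to 78 with single libraries left out. Deviations of same-numbered libraries from their group means correlated at -0.55, -0.47 and 0.02. Across unlike numbers the values ran from -0.1 to 0.53. With 3 libraries per group, deviations from a mean depend on each other. These values therefore cannot show whether the libraries were prepared in pairs. With the block EGR1 had a log2 fold change of -1.42 and an edgeR adjusted p of 0.319. JUN, ETV4 and ITGB7 were each called in 15 of 16 alternatives, the exception being the block (adjusted p of 0.0616, 0.0762 and 0.0762). IER2 had an edgeR adjusted p of 0.000324 without a low-count filter and 0.0764 by DESeq2. With single libraries left out the log2 fold change of KLF10 ran between -0.39 and 0.04, positive without MRT199665 replicate 1 (0.04) or vehicle replicate 3 (0.03). That of IER3 ran between -0.65 and 0.32, positive without MRT199665 replicate 1 or 2 or vehicle replicate 2 or 3, and was also positive by limma-voom (0.46), with the replicate block (0.07) and without both libraries numbered 2 (0.44). The cause of these changes was not tested. IER3 did not pass the stricter filter. Genes at a few counts, such as EGR2, EGR3 and NR4A1, are limited by depth.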
